A study of Homo sapiens with 12 samples.

Results

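Transforming growth factor beta (TGF-beta), bone morphogenetic protein (BMP) and inhibitor of DNA binding (ID) genes were followed through RNA-seq of prostate cancer cells with altered GALNT7, an enzyme that adds sugars to proteins in mucin-type O-glycosylation. The set held 10 genes chosen by name, of 59424 in each table, namely the ligand genes TGFB1, TGFB2, INHBA and BMP4, the receptor gene TGFBR2, the signal transducer genes SMAD3 and SMAD7, and the nuclear genes ID1, ID2 and ID3. CWR22Rv1 cells, a prostate cancer line, carried a lentiviral control shRNA (shControl) or a GALNT7 knockdown (GALNT7 KD). DU145 cells, a second prostate cancer line, were transduced with lentivirus that delivered GALNT7 (GALNT7 OE) or a control reading frame (OE control). All were stable lines made by lentiviral transduction and the labels name no further treatment. Each group had 3 libraries labelled as biological replicates, which makes 12 in all. How the cultures were separated is not given, so p-values measure the spread between these libraries, which may be technical.

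TGF-beta and BMP ligands are secreted dimers that bring type I and type II receptor kinases together. TGF-beta and activin signal mainly through SMAD2 and SMAD3, BMPs mainly through SMAD1, SMAD5 and SMAD9, and both arms use SMAD4 and are damped by the inhibitory SMAD6 and SMAD7. The ID genes are classical BMP targets, and ID proteins hold E proteins, a family of helix-loop-helix transcription factors, away from DNA. In prostate epithelium TGF-beta is known as a growth inhibitor whose effect is often lost in cancer, where reduced TGFBR2 is a known route to that loss.

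Promoter sequence is shown for TGFBR2, the member that passed the test in both cell lines, for TGFB2, which fell with it in DU145 cells, and for ID1, which passed in neither. The letters are the 250 bases before the RefSeq start on GRCh38.p14, all on the plus strand, at chr3:30606106-30606355 for TGFBR2, chr1:218345086-218345335 for TGFB2 and chr20:31605039-31605288 for ID1. Capitals mark matches to the motifs searched on both strands, which were the SMAD-binding letters CAGAC, the palindrome GTCTAGAC, the GC-rich SMAD letters GGCGCC, the CCAAT box (CCAAT, or ATTGG on the other strand) and the TATA box (TATAAA, or TTTATA on the other strand).
TGFBR2: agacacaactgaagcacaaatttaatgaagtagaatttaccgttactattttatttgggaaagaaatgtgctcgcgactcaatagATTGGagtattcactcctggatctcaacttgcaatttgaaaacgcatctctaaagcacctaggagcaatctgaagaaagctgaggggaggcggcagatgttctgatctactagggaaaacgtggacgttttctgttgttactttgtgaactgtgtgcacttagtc
TGFB2: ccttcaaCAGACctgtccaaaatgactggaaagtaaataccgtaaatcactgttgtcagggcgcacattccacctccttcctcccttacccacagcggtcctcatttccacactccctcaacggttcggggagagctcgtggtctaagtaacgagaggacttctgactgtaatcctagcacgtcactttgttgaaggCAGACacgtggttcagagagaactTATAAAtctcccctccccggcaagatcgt
ID1: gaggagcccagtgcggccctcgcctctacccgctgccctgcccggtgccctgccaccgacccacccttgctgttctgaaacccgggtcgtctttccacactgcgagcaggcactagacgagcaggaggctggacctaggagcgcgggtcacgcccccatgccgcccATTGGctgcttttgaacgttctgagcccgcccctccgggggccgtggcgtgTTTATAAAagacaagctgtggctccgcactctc
The TGFBR2 window held a single match, an ATTGG that began 165 bases before the start. TGFB2 had CAGAC at 243 and 53 bases and TATAAA at 29 bases before its start. The ID1 window had ATTGG at 84 bases and overlapping TTTATA and TATAAA at 33 and 31 bases. GC content was 40.8% for TGFBR2, 50.4% for TGFB2 and 66.0% for ID1. Of the 35116 RefSeq promoter windows of the same length, 38.0% held CAGAC, 32.0% CCAAT, 16.4% GGCGCC, 10.7% TATAAA and 0.182% GTCTAGAC. All 10 members were matched by symbol, with 19 windows between them, and no window of a member held GTCTAGAC. The ID2 window had 3 CCAAT boxes and the ID3 window 1 CAGAC. Of the 250 bases in each, 202 for ID2 and all 250 for ID3 lay in annotated exons, so these windows are not printed. The downstream TGFBR2 window, not printed, had its ATTGG at 136 bases. A match of this kind is a description of the letters only.

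The authors deposited normalised counts, which are reads per gene divided by a factor for each library. Recovered depth was 18364512 to 22264533 reads in the CWR22Rv1 libraries and 21628718 to 24356910 in those from DU145. GALNT7 itself was 861.5, 1042 and 1093 normalised counts in shControl cells and 480.5, 501.4 and 399.7 in GALNT7 KD cells, a log2 difference of -1.11 ± 0.129 (± standard error, adjusted p = 0.0051 by limma). Counts were 1051, 927.6 and 912.8 in the OE control and 1988, 2221 and 2334 in GALNT7 OE libraries, a log2 difference of 1.18 ± 0.0863 (± standard error, adjusted p = 7.99e-05 by limma), so the libraries followed their labels. The epithelial markers EPCAM, KRT8, KRT18, KRT19 and CDH1 were present in all groups. Of 6 luminal prostate markers, all 6 were at a mean of 5 or more in CWR22Rv1 cells. In DU145 cells the luminal marker KLK3 was at 0 in every library. Fibroblast markers (6 genes) summed to 295.7 to 367.8 in shControl and 714.7 to 799.5 in GALNT7 KD cells, most of it LUM, and to 304.8 to 431.4 in the OE control and 73.0 to 165.4 in GALNT7 OE cells, most of it COL1A1. The 5 immune markers summed to 2646 to 2843 in the OE control and to 1016 to 1149.6 in GALNT7 OE cells, nearly all of it CD68, and to 114.9 to 132.5 and 135.8 to 197.2 in the shControl and GALNT7 KD libraries, with the T cell marker CD3E at 0 in every library and PTPRC, which marks leukocytes, at or near 0. The part of these marker sums in the results was not tested.

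Differences were tested by limma in each cell line separately, on log2(normalised count + 1). A gene was tested where its normalised counts averaged 5 or more across the 6 libraries. An adjusted p under 0.05 after Benjamini-Hochberg correction over all genes tested is called a change here. The added 1 shrinks the fold changes of genes with few reads. In bulk RNA, fewer cells of a kind and less RNA per cell cannot be told apart.

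After GALNT7 knockdown, 2 of the 9 members tested changed, which was TGFBR2 upwards and INHBA downwards. Among all 17906 genes tested 9.06% changed, with 5.28% higher and 3.79% lower. BMP4 was too low to be tested. After GALNT7 overexpression, 7 of 10 members changed. TGFB1, ID2 and ID3 were higher, and TGFB2, BMP4, TGFBR2 and SMAD3 were lower. The background in DU145 cells was large, since 43.5% of 18705 genes changed, with 22.9% higher and 20.5% lower (4290 and 3842 genes, against 3380 and 4737 with 75th percentile scaling). TGFBR2 was the member called in both cell lines, and its directions were opposite. Groups did not overlap for 5 of the 9 members after knockdown (32.5% of all genes tested) and for 7 of 10 after overexpression (55.3% of all genes tested). The median log2 fold change was 0.058 over the 9 members after knockdown, against -0.0063 over all genes tested, and -0.083 over the 10 after overexpression, against -0.011.

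**Figure D1:**
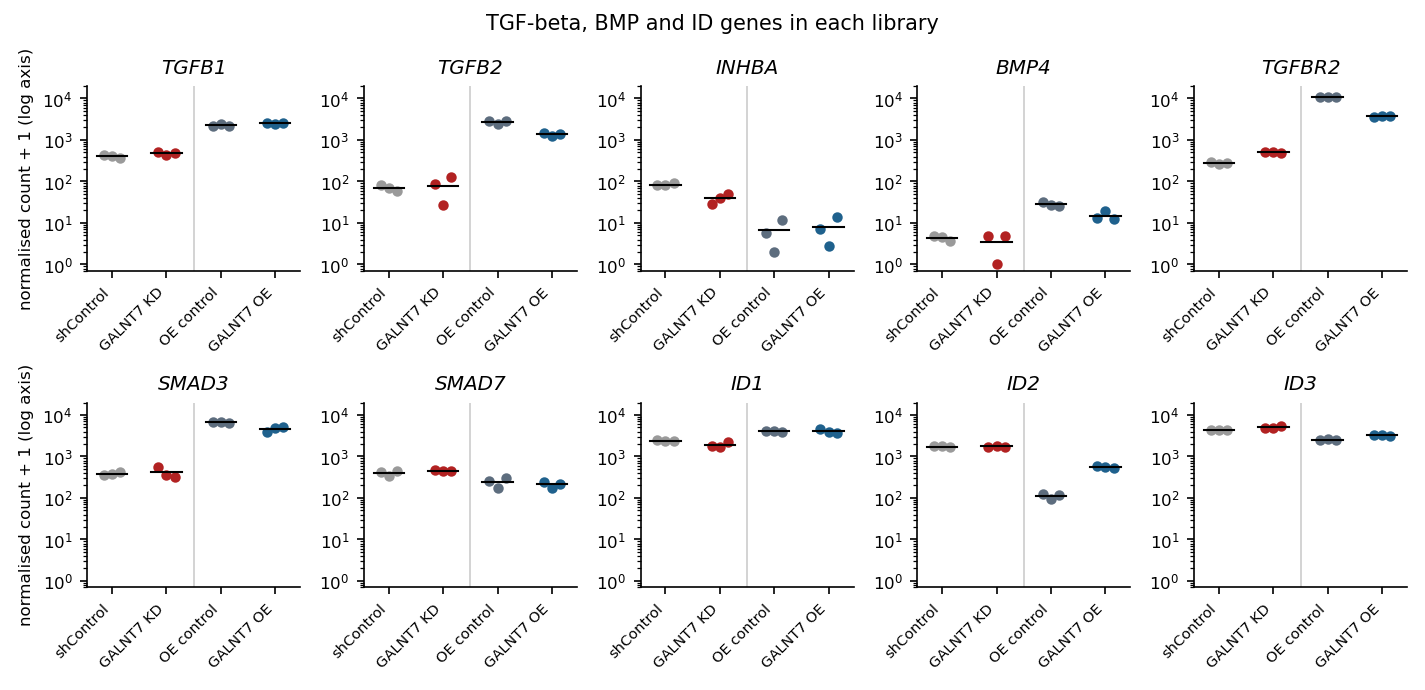
Normalised count plus 1 of each of the 10 genes (vertical log axis) in every library of the 4 groups, with 1 point per library and a bar at the group mean. The grey line separates CWR22Rv1 from DU145 cells, whose tables were scaled separately. TGFBR2 moved up in all 3 GALNT7 KD libraries and down in all 3 GALNT7 OE libraries, and ID2 was higher in all 3 GALNT7 OE libraries than in the OE control.

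The receptor gene passed in both cell lines. TGFBR2 (ENSG00000163513, chromosome 3, 30606502 to 30694142 on hg38) encodes the type II receptor that binds TGF-beta and phosphorylates the type I receptor. In CWR22Rv1 cells it was 290.3, 268.8 and 280.2 in the shControl libraries and 513.4, 502.4 and 483.5 in the GALNT7 KD libraries. Every knockdown library was above every control, and the spread within a group was small (279.7 ± 10.8 against 499.8 ± 15.1, SD, n = 3 each). This was a 1.78-fold rise (log2 fold change 0.84, standard error 0.0839, adjusted p = 0.0033 by limma). In DU145 cells TGFBR2 was 10959, 11099 and 10887 in the OE control and 3582, 3771 and 3789 in GALNT7 OE cells. Groups were again far apart (10982 ± 108 against 3714 ± 115, SD, n = 3 each), a 2.96-fold fall (log2 fold change -1.56, standard error 0.0383, adjusted p = 1.63e-06 by limma). Both calls held under all 17 alternative settings, with log2 fold changes of 0.81 to 0.86 and -1.58 to -1.54 when a library was left out. The promoter with the single ATTGG shown above belongs to this gene.

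TGFB1 (ENSG00000105329, chromosome 19, 41301587 to 41353911) encodes the most widely expressed TGF-beta ligand. Its counts in CWR22Rv1 cells were 442.4, 417.3 and 361.7 without and 512.4, 425.6 and 493.2 with knockdown. The groups overlapped, and the log2 fold change of 0.23 (95% interval -0.050 to 0.51) did not pass (limma adjusted p = 0.27). In DU145 cells they were 2176, 2387 and 2192 in the OE control and 2529, 2474 and 2559 in GALNT7 OE cells. All 3 overexpression libraries were higher, by 0.16 on the log2 scale (standard error 0.0543, adjusted p = 0.047 by limma). That call was kept in 6 of 17 alternatives. It was lost with any library but OE control replicate 2 left out, at adjusted p of 0.0794 to 0.14 and log2 fold changes of 0.14 to 0.18. With 75th percentile scaling the log2 fold change was 0.064 (adjusted p = 0.383), and with quantile normalisation 0.080 (adjusted p = 0.296). TGFB1 overlaps genes on the opposite strand, of which HNRNPUL1 was by far the most abundant (means of 6749 and 4518 in shControl and GALNT7 KD, and of 9929 and 13620 in OE control and GALNT7 OE). The kit keeps strand, but whether counting used it is not given in the sources used here.

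TGFB2 (ENSG00000092969, chromosome 1, 218346235 to 218444619) encodes the ligand that needs the co-receptor betaglycan to bind TGFBR2 well. It was low and uneven in CWR22Rv1 cells, at 83.1, 69.0 and 58.6 in shControl and 84.1, 25.6 and 124.3 in GALNT7 KD libraries. The knockdown libraries lay on either side of the controls, and the interval of the log2 fold change ran from -1.40 to 1.19 around -0.10 (limma adjusted p = 0.93). In DU145 cells TGFB2 fell from 2827, 2467 and 2855 to 1442, 1271 and 1398. No overexpression library came near a control, and the fall was 1.98-fold (log2 fold change -0.99, standard error 0.0802, adjusted p = 1.26e-04 by limma), kept in all 17 alternatives.

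INHBA (ENSG00000122641, chromosome 7, 41667168 to 41705834) encodes the beta A subunit of activin and inhibin. It was 82.1, 79.6 and 88.8 in shControl and 27.1, 39.5 and 48.2 in GALNT7 KD cells, so all knockdown libraries were below all controls. The fall was 2.21-fold (log2 fold change -1.14, standard error 0.237, adjusted p = 0.033 by limma). It was kept in 9 of 17 alternatives and lost with any library but GALNT7 KD replicate 3 left out, at adjusted p of 0.0684 to 0.105 and log2 fold changes of -1.18 to -0.92. In DU145 cells INHBA was close to absent, at 4.8, 1.0 and 11.1 in the OE control and 6.0, 1.8 and 12.6 in GALNT7 OE libraries. These values rest on 1 to 12 reads, the groups overlapped, and the interval of the difference was -1.70 to 2.33 (limma adjusted p = 0.79).

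BMP4 (ENSG00000125378, chromosome 14, 53949736 to 53958761) encodes a BMP ligand that acts in prostate development. It had 3 to 4 reads per shControl library and 0 to 4 per GALNT7 KD library, which was under the filter, so a difference was not detectable at this depth. In DU145 cells it was 31.5, 26.6 and 25.2 in the OE control and 12.03, 18.5 and 11.5 in GALNT7 OE cells. The groups did not overlap, and the log2 fold change was -0.96 (standard error 0.279, adjusted p = 0.029 by limma). Each value rested on 11 to 33 reads. The call was kept in 6 of the 16 alternatives in which BMP4 was tested. It was lost with any library but GALNT7 OE replicate 2 left out (limma adjusted p of 0.0599 to 0.0935, log2 fold change -1.03 to -0.85). It was also lost with no filter on low values (limma adjusted p = 0.0691) and with DESeq2 on the recovered reads (adjusted p = 0.0996). With quantile normalisation the log2 fold change was -0.65 (limma adjusted p = 0.121).

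SMAD3 (ENSG00000166949, chromosome 15, 67063763 to 67195195) encodes a receptor-activated SMAD of the TGF-beta and activin arm. Its counts were 353.8, 388.1 and 412.0 in shControl and 563.6, 347.7 and 325.6 in GALNT7 KD cells. Replicate 1 of the knockdown stood above all other libraries and the other 2 knockdown libraries below all controls, so the log2 fold change was 0.058 with an interval of -0.44 to 0.56 (limma adjusted p = 0.9). Without that library the log2 fold change was -0.19. In DU145 cells SMAD3 fell from 6822, 6620 and 6343 to 3863, 4752 and 5108. All overexpression libraries were lower, though unequally so, with a log2 fold change of -0.54 (standard error 0.101, adjusted p = 0.005 by limma), and the call was kept in all 17 alternatives.

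SMAD7 (ENSG00000101665, chromosome 18, 48919853 to 48952052) encodes the inhibitory SMAD that TGF-beta itself induces. It was 421.9, 334.2 and 447.7 in shControl and 467.0, 453.3 and 449.8 in GALNT7 KD cells. The knockdown libraries were all higher, but by little, and the log2 fold change of 0.20 (interval -0.098 to 0.49) did not pass (limma adjusted p = 0.37). DU145 cells held 254.8, 172.8 and 297.2 without and 245.5, 173.7 and 221.3 with overexpression. The groups overlapped almost fully, with a log2 fold change of -0.16 (interval -0.69 to 0.38, limma adjusted p = 0.61).

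ID1 (ENSG00000125968, chromosome 20, 31605283 to 31606515) encodes an ID protein that BMP signalling induces. In CWR22Rv1 cells it was 2529, 2364 and 2333 in shControl and 1834, 1729 and 2239 in GALNT7 KD libraries. All 3 knockdown libraries were lower, replicate 3 only just, and the log2 fold change of -0.32 (interval -0.57 to -0.082) did not pass (limma adjusted p = 0.099). It passed with DESeq2 (adjusted p = 0.0347) and without GALNT7 KD replicate 3 (log2 fold change -0.43, adjusted p = 0.0227). In DU145 cells ID1 was 4072, 4077 and 3963 in the OE control and 4540, 3949 and 3602 in GALNT7 OE cells. The overexpression libraries lay above, within and below the control range, a log2 fold change of -0.0090 with an interval of -0.21 to 0.19 (limma adjusted p = 0.94).

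ID2 (ENSG00000115738, chromosome 2, 8678845 to 8684453) was the member with the largest change in DU145 cells. In CWR22Rv1 cells the shControl libraries held 1763, 1745 and 1681 and the GALNT7 KD libraries 1705, 1808 and 1709. These overlapped, and the interval of the log2 fold change, -0.12 to 0.14, was narrow (limma adjusted p = 0.94). In DU145 cells ID2 rose from 126.9, 93.1 and 118.9 in the OE control to 605.4, 543.4 and 528.6 in GALNT7 OE cells. The lowest overexpression library was far above the highest control, a 4.95-fold rise (log2 fold change 2.31, standard error 0.141, adjusted p = 3.61e-05 by limma) that was kept in all 17 alternatives. ID2-AS1, which overlaps ID2 on the opposite strand, was at 17.4 to 25.2 in the OE control and 31.5 to 46.2 in GALNT7 OE cells, and the pseudogene copy ID2B was at 0 in all DU145 libraries.

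ID3 (ENSG00000117318, chromosome 1, 23557918 to 23559794) encodes a further ID protein with the same mode of action. The shControl libraries held 4441, 4361 and 4391 and the GALNT7 KD libraries 4873, 4727 and 5407. The knockdown libraries were all higher, by 0.18 on the log2 scale (interval 0.044 to 0.32), which did not pass (limma adjusted p = 0.10, and 0.0429 with DESeq2). In DU145 cells the counts were 2546, 2594 and 2515 in the OE control and 3371, 3317 and 3134 in GALNT7 OE cells. No libraries overlapped, and the 1.28-fold rise passed (log2 fold change 0.36, standard error 0.0476, adjusted p = 0.0011 by limma) in all 17 alternatives.

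**Figure D2:**
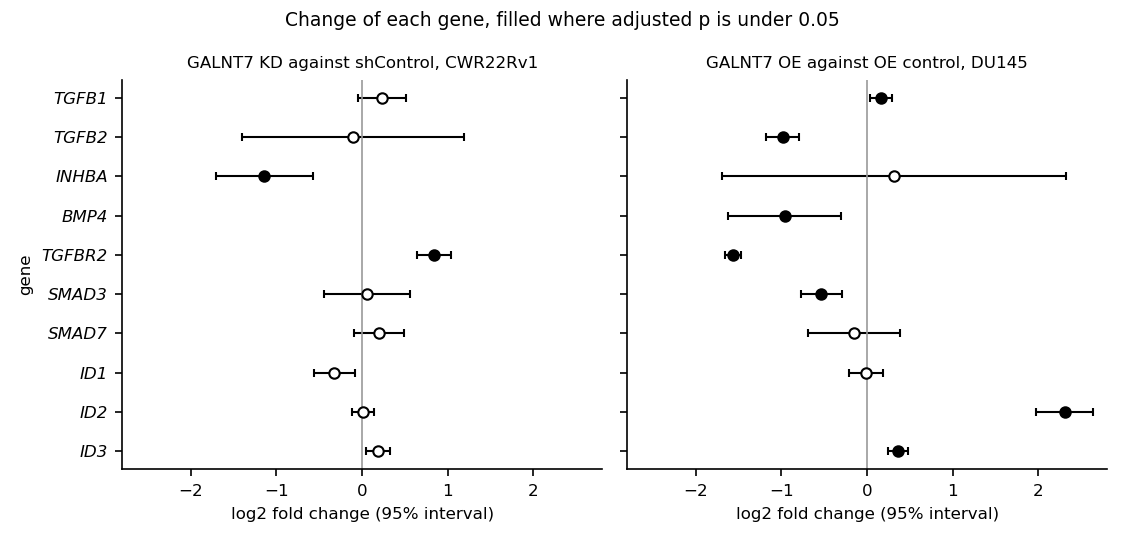
Log2 fold change of each gene with its 95% interval (horizontal axis) after GALNT7 KD in CWR22Rv1 cells (left) and GALNT7 OE in DU145 cells (right), filled where the adjusted p was under 0.05. BMP4 has no value on the left since it was not tested. TGFBR2 is filled on both sides with opposite signs, and ID2 has the largest change at 2.31.

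Levels of different genes were compared only per kb of exon and within a cell line. In shControl cells the order was ID3 (2447 ± 22.4 normalised counts per kb, SD, n = 3), ID1 (1953 ± 85.2), ID2 (784.5 ± 19.6), TGFB1, SMAD7, TGFBR2, SMAD3, TGFB2, INHBA and BMP4, and no gene overlapped the next in its libraries. In GALNT7 KD cells the order was the same but for TGFBR2 (106.2 ± 3.21), which stood above SMAD7 (90.7 ± 1.80), while TGFB2 and INHBA overlapped. In OE control cells ID1 led (3274 ± 52.5), followed by TGFBR2 (2335 ± 23.0) and ID3 (1419.8 ± 22.1). SMAD3 and TGFB1 overlapped next, ahead of TGFB2, then ID2 and SMAD7, which overlapped, then BMP4 and INHBA. In GALNT7 OE cells ID3 (1822 ± 68.9) was above TGFBR2 (789.5 ± 24.4), which overlapped TGFB1 (778.4 ± 13.4). ID2 (253.6 ± 18.5) overlapped TGFB2 (266.0 ± 17.3) there, and ID1 (3269 ± 384.8) still led.

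Seen as a family, the summed level of ID1, ID2 and ID3 per kb was 5185 ± 119.6 in shControl and 5142 ± 401.4 in GALNT7 KD cells (SD, n = 3 each). ID1 made up 37.1% to 38.5% of it in shControl and 28.9% to 32.4% in GALNT7 KD libraries, and ID3 46.4% to 47.9% against 53.7% to 54.5%. In DU145 cells ID1 made up 68.9% to 69.1% in the OE control and 59.6% to 63.1% in GALNT7 OE cells, and ID2 0.881% to 1.21% against 4.65% to 4.89%. None of these ranges overlapped between the groups of a cell line. ID4, the remaining member of the ID family, was 1296, 1326 and 1301 in shControl and 1220.1, 1144 and 1138 in GALNT7 KD cells (log2 fold change -0.16, limma adjusted p = 0.14) and was at 0 in all DU145 libraries. Of the 3 TGFB genes, TGFB2 made up 42.6% ± 3.27 of the summed level per kb in the OE control and 25.1% ± 0.907 in GALNT7 OE cells, and TGFB1 56.2% ± 3.09 and 73.4% ± 1.22 (SD, n = 3 each). In CWR22Rv1 cells the TGFB shares overlapped between the groups, with TGFB1 at 72.0% to 83.8% in shControl and 75.3% to 83.1% in GALNT7 KD. These shares are descriptions, with no test.

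**Figure D3:**
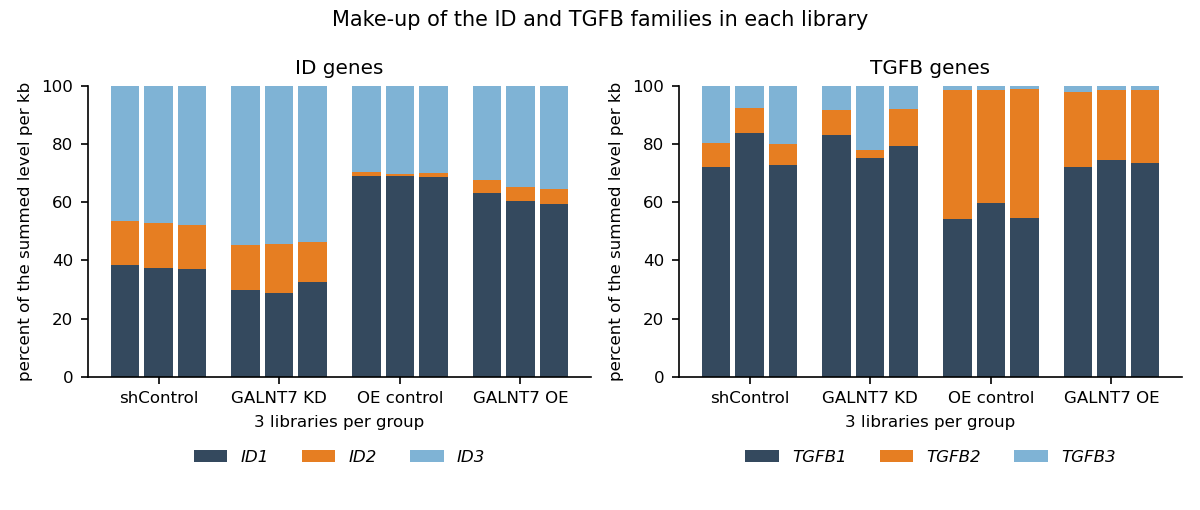
Percent of the summed level per kb (vertical axis) that each gene took in the ID family (left, ID1 to ID3) and the TGFB family (right), with 1 stacked bar per library and 3 libraries per group. In DU145 cells the ID2 share rose from about 1.08% to 4.75% and the TGFB2 share went from 42.6% to 25.1% on average.

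The rest of the pathway was read from a list of 90 further genes by role. After knockdown 13 of the 73 tested changed (17.8%, against 9.06% of all genes), with 7 higher and 6 lower, and a median log2 fold change of -0.060. After overexpression 37 of 75 changed (49.3%, against 43.5% of all genes), with 10 higher and 27 lower, and a median of -0.24. The list and the members were chosen with earlier results of these data known, so these counts are descriptions.

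Of the other ligands and the proteins that keep them latent, 3 of 12 changed after knockdown, all lower (3.79% of all genes were lower). BMP2, a BMP ligand, went from 111.1, 128.2 and 115.4 to 15.5, 17.1 and 16.4 (log2 fold change -2.78, standard error 0.171, adjusted p = 6.53e-04 by limma). INHBB, the activin beta B subunit, went from 105.5, 99.9 and 108.0 to 12.6, 22.4 and 17.3 (log2 fold change -2.55, standard error 0.241, adjusted p = 0.0028 by limma). BMP7 fell from 39.2, 170.6 and 82.4 to 1.9, 1.1 and 1.0, on 1 to 2 reads in each knockdown library. INHBA and INHBB, which code for the subunits of activins A and B, were thus both lower in GALNT7 KD cells. After overexpression 8 of 14 changed, with 7 lower (43.5% of all genes changed and 20.5% were lower). The latent TGF-beta binding protein genes LTBP1 to LTBP4 were all lower. LTBP2 went from 6791, 6439 and 6778 to 2026, 1897 and 1850.3 (log2 fold change -1.79, standard error 0.0516, adjusted p = 2.92e-06 by limma). LTBP3 (-1.58), LTBP1 (-1.39) and LTBP4 (-0.93) fell by less, on the log2 scale. LTBP1, LTBP3 and LTBP4 proteins hold TGF-beta in the matrix, whereas LTBP2 does not bind it. GDF5 and BMP8B were lower too (log2 fold changes -2.13 and -0.82), and BMP5 was the ligand that rose, from at most 1 read to 8.3 or more normalised counts.

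Among receptors 1 of 12 changed after knockdown (8.33%, against 9.06% of all genes), which was AMHR2, lower. After overexpression 4 of 12 changed (33.3%, against 43.5% of all genes), all lower, namely TGFBR3 (-0.85), the betaglycan gene, BMPR2 (-0.54), the BMP type II receptor, ACVR1B (-0.31) and ACVR1 (-0.24), as log2 fold changes. TGFBR2 fell by more than any of these. Of the 6 other SMAD genes none passed after knockdown, against 9.06% of all genes. SMAD4 (log2 fold change 0.23) and SMAD9 (0.49) rose after overexpression (33.3% of the 6, against 43.5% of all genes), where SMAD3 fell. Secreted and membrane inhibitors were lower in 6 of 9 cases after overexpression (20.5% of all genes were lower). CHRD, which codes for the BMP antagonist chordin, went from 92.6, 97.2 and 73.6 to 24.1, 17.6 and 12.6 (log2 fold change -2.25, standard error 0.273, adjusted p = 7.05e-04 by limma). BMPER (-1.95) and NBL1 (-1.12), which also bind BMPs, fell as well on the log2 scale, with limma adjusted p of 4.49e-05 and 3.49e-05. After knockdown 1 of 8 inhibitors changed (12.5%, against 9.06% of all genes), NBL1 upwards (log2 fold change 0.52, limma adjusted p = 0.038). Intracellular regulators changed in 1 of 13 cases after knockdown (7.69%, against 9.06% of all genes), STRAP downwards (log2 fold change -0.27). They changed in 3 of 13 after overexpression, all upwards (23.1%, against 43.5% of all genes). STRAP and AMHR2 lie on chromosome 12, whose 922 genes had a median log2 fold change of -0.28 after knockdown, and whose part in these calls was not tested. No member lies there.

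Among known TGF-beta target genes, 6 of 14 changed after knockdown, with 5 higher, against 9.06% changed and 5.28% higher among all genes. THBS1, whose product thrombospondin 1 can activate latent TGF-beta, went from 819.5, 885.9 and 946.7 to 3582, 3793 and 3293 (log2 fold change 2.01, standard error 0.081, adjusted p = 1.03e-04 by limma). ANGPTL4 (0.63), FN1 (0.62), CDKN1A (0.53) and SNAI2 (0.43) rose by less, as log2 fold changes. FN1 codes for fibronectin, CDKN1A for the cell cycle inhibitor p21 and SNAI2 for the transcription factor Slug. CCN2, connective tissue growth factor, went the other way, from 58.8, 59.2 and 55.9 to 3.9, 2.1 and 2.9 (log2 fold change -3.92, standard error 0.289, adjusted p = 0.0011 by limma). After overexpression 12 of 14 changed, with 9 lower, against 43.5% changed and 20.5% lower among all genes. COL1A1 (log2 fold change -2.01), FN1 (-1.38), JUNB (-1.34), SNAI2 (-1.31), TAGLN (-1.08), IL11 (-0.84), THBS1 (-0.55), TGFBI (-0.42) and CCN2 (-0.21) fell, and ANGPTL4 (1.34), CDKN1A (0.55) and CDKN2B (0.32) rose. COL1A1 also counts among the fibroblast markers. Of the BMP targets, ATOH8 rose after knockdown (log2 fold change 0.57) and fell after overexpression (-0.54), and of the 3 E protein genes TCF3 rose after overexpression (0.31).

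Several of the weaker calls were lost when a library was left out, which also leaves fewer libraries to test. Calls over all genes fell in the same way, from 1623 to between 539 and 1336 after knockdown. After overexpression they fell from 8132 to between 6757 and 7629. After knockdown NBL1 and STRAP were lost with any library left out (limma adjusted p up to 0.126 and 0.105), and AMHR2 with any but GALNT7 KD replicate 3 (up to 0.112). FN1 was lost without GALNT7 KD replicate 1 or 2 or shControl replicate 1 or 3 (up to 0.0908), ATOH8 without GALNT7 KD replicate 1 or any shControl library (up to 0.0835), and SNAI2 without GALNT7 KD replicate 1 or shControl replicate 1 or 3 (up to 0.0614). BMP2, INHBB, BMP7, THBS1, ANGPTL4, CDKN1A and CCN2 were kept with each library left out. After overexpression ACVR1 was lost with any library but OE control replicate 1 left out (up to 0.138) and ACVR1B with any but GALNT7 OE replicate 2 (up to 0.108). ATOH8 was lost without GALNT7 OE replicate 2 or 3 or OE control replicate 2 or 3 (up to 0.0787), CDKN2B without OE control replicate 1 or 3 (up to 0.0599) and SMAD9 without OE control replicate 2 (0.0584). Among the calls counted by role, INHA (lower) was lost with any library left out (up to 0.117). SKIL (higher) was lost without GALNT7 OE replicate 2 or 3 or OE control replicate 2 or 3 (up to 0.125). BAMBI (lower) was lost without GALNT7 OE replicate 1 or 2 or OE control replicate 2 or 3 (up to 0.0653), and TWSG1 (lower) without OE control replicate 3 (0.0526).

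**Figure D4:**
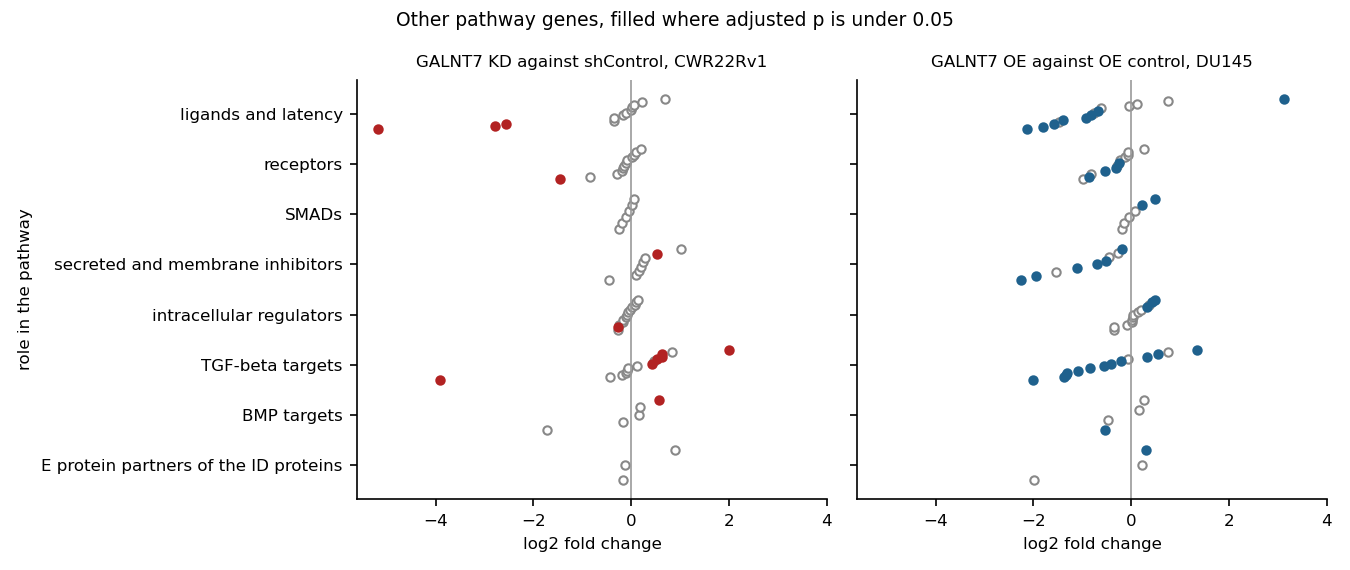
Log2 fold change (horizontal axis) of the other pathway genes tested, by role (rows), after GALNT7 KD (left, 73 genes) and GALNT7 OE (right, 75 genes), with 1 point per gene, filled where the adjusted p was under 0.05. On the right 27 of the 37 filled points lie below 0, and of the 14 TGF-beta targets 6 are filled on the left and 12 on the right.

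Across members and list, 15 genes changed after knockdown and 44 after overexpression, and 10 changed in both, which is 66.7% of the former and 22.7% of the latter. Among the 75 of these genes tested in both cell lines, the 10 were 90.9% of 11 called after knockdown and 25.6% of 39 called after overexpression. Over all 16124 genes tested in both, 884 changed in both, which is 60.5% of 1461 and 12.03% of 7351, and 52.5% of the 884 went in opposite directions. These shares are descriptions, and the overlap was not tested. TGFBR2, ATOH8, FN1, NBL1, SNAI2 and THBS1 were higher with GALNT7 KD and lower with GALNT7 OE. STRAP was lower with GALNT7 KD and higher with GALNT7 OE. ANGPTL4 and CDKN1A were higher in both and CCN2 lower in both. Side by side, the log2 fold changes after knockdown and overexpression were 0.84 and -1.56 for TGFBR2, 2.01 and -0.55 for THBS1 and 0.62 and -1.38 for FN1. No test compared the cell lines, which differ in more than GALNT7.

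Over the 12 libraries, each centred on the control mean of its cell line, the genes with log2 values nearest to TGFBR2 among 16124 tested in both lines were AQP3 (Euclidean distance 0.392), ACO1 (0.401) and EPAS1 (0.457). AQP3, an aquaporin gene, had log2 fold changes of 0.84 after knockdown and -1.37 after overexpression. ACO1, which codes for the iron-responsive cytosolic aconitase, had 0.67 and -1.47. EPAS1, the HIF-2 alpha gene, had 0.92 and -1.46. These were picked for their likeness, so their values describe the pattern and carry no test.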

How the data were processed

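RNA from CWR22Rv1 and DU145 cells was sequenced after a TruSeq stranded mRNA preparation, with 3 libraries in each of 4 groups. The authors deposited normalised counts (a signal, not whole reads) for 59424 Ensembl genes in a table per cell line. Per the labels, the processing used hg38, FastQC, Salmon, DESeq2 and R 3.5.3; the part each played and the annotation release are not given in the sources used here. Every value was a whole multiple of the smallest value above 0 in its library (tolerance 0.01), so reads were recovered by division. Replicate pairs differed by a mean chi-square per gene of 8.77 to 23.7, which is above sampling noise, and none was counted together with another. No column was left without a sample.

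Positions and exon lengths came from GENCODE 29, and promoters from RefSeq (GRCh38.p14). Symbols came from a list of current gene names, with the GENCODE 29 name used where that list had none. Each cell line was fitted with limma 3.58.1 in R 4.3.3 (lmFit, then eBayes with trend) after a pseudocount of 1 and log2 transformation of genes with a mean of at least 5, with Benjamini-Hochberg adjustment over all genes and a threshold of 0.05. Tables were scaled separately, so no test joined the cell lines. On simulated counts limma recovered 98 of 98 genes changed by 1 on the log2 scale and 102 of 102 changed by 2, for the knockdown libraries, where 10 of 17906 genes were called falsely. For the overexpression libraries it recovered 99 of 99 and 101 of 101, and 9 of 18705 genes were called falsely. The simulation gave every gene the same dispersion and changed 200 genes, none of which had few reads. It therefore cannot show how well changes are recovered in genes with few reads, such as BMP4, or in genes with uneven replicates. Nor does it cover a background as large as that in DU145 cells, where 43.5% of genes changed.

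The members, the list of 90 pathway genes and the marker lists (luminal prostate, epithelial, fibroblast, immune and endothelial) were chosen with earlier results of these data known. The naming rule took all members and GALNT7, and per comparison up to 10 pathway genes with the largest absolute log2 fold change among those past the threshold with a mean of at least 50 and groups that did not overlap. For TGFBR2 it took the 3 genes of smallest Euclidean distance. Other pathway genes named were chosen after their values were seen. The values of some listed genes are not reported here, although the counts include them. The 3 endothelial markers summed to at most 3.87 in CWR22Rv1 and 54.5 in DU145 libraries. Alternatives were pseudocounts of 0.5 and 5, no filter, a mean of at least 50, 75th percentile scaling, quantile normalisation, the replicate block, eBayes without trend, edgeR 4.0.16 and DESeq2 1.42.0 on the recovered reads, an adjusted p of 0.01 and each library left out.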

Additional observations from a re-analysis of the deposited data

How the results depend on the processing

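Of the 9 members tested after knockdown, 2 changed, against 1 with no filter on low values, with the replicate block or at an adjusted p of 0.01, 4 with DESeq2 (TGFBR2, INHBA, ID1 and ID3) and 1 to 3 with a library left out (3 only without GALNT7 KD replicate 3). The 13 pathway genes became 7 at 0.01 and 7 to 11 with a library left out (7 without shControl replicate 1 or 3 or GALNT7 KD replicate 1). Over all genes 1623 changed after knockdown, against 1002 with the replicate block, 996 without the trend, 2666 with DESeq2, 392 at 0.01 and 539 to 1336 with a library left out (539 without GALNT7 KD replicate 1, 555 without shControl replicate 1, and under 1.5 times away only without GALNT7 KD replicate 3, at 1336). After overexpression the 8132 calls became 5303 at 0.01, and the counts of 7 members and 37 pathway genes stayed within 1.5 times under every alternative, at 5 to 6 and 31 to 35 with a library left out. With 75th percentile scaling the overexpression calls split into 3380 higher and 4737 lower (41.6% higher), against 4290 and 3842 (52.8% higher). The pathway genes called split into 7 higher and 28 lower there, against 10 and 27, so some of the rises depended on the scaling.

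Among the members, directions turned only for log2 fold changes that had not passed. After knockdown ID2 was -0.013 with 75th percentile scaling, -0.014 with quantile normalisation and -0.019 to 0.023 with a library left out, and TGFB2 was 0.15 with both edgeR and DESeq2 and -0.57 to 0.55 with a library left out. SMAD3 after knockdown ranged from -0.19 to 0.21 in that way, and after overexpression INHBA from -0.37 to 0.92, SMAD7 from -0.38 to 0.010 and ID1 from -0.098 to 0.069. The cause was not tested.

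The replicate numbers came from the labels. Deviations of same-numbered libraries from their group means correlated at -0.011, 0.0747 and -0.0057 in CWR22Rv1 and at 0.0432, 0.0428 and 0.0159 in DU145 cells. Correlations this small cannot tell whether same-numbered libraries shared a batch, and the labels do not say. Fitted with the number as a replicate block, the adjusted p of INHBA after knockdown was 0.056, of TGFB1 after overexpression 0.0996 and of BMP4 after overexpression 0.0605. In DU145 cells each control correlated best with the library of its own number, and in CWR22Rv1 cells only shControl replicate 2 did. Depth limits BMP4 in CWR22Rv1 and INHBA in DU145 cells, at 0 to 4 and 1 to 12 reads per library. Strand use in counting is not known, which bears on TGFB1 and ID2 with their opposite-strand neighbours.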

Other observations

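TCF4, whose product is an E protein that ID proteins can bind, was uneven between libraries of 1 group. In DU145 cells it was 1.9, 128.9 and 125.9 normalised counts in the OE control and 2.0, 0.9 and 130.1 in GALNT7 OE libraries. In CWR22Rv1 cells it was 564.7, 290.9 and 366.2 in shControl and 828.6, 336.0 and 1419 in GALNT7 KD libraries. Neither difference passed the limma test (adjusted p = 0.47 and 0.32). The other E protein genes of the list, TCF3 and TCF12, showed no such spread, with TCF12 at 2593 to 3207 in the OE control and 3108 to 3636 in GALNT7 OE cells.

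TGFB3, the remaining TGF-beta ligand gene, was also uneven in CWR22Rv1 cells, at 182.0, 56.6 and 149.2 in shControl and 78.3, 187.7 and 74.2 in GALNT7 KD libraries (log2 fold change -0.16, limma adjusted p = 0.88).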
